A study of Mus musculus with 4 samples.

Results

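Regulatory T cells of mouse ascites were taken from single-cell RNA sequencing of malignant ascites as T cells with at least 1 UMI (unique molecular identifier, a tag that counts 1 captured RNA molecule) of Foxp3. A cell belonged to the T cell gate when it held 2 or more UMIs of Cd3d, Cd3e and Cd3g together. It was allowed at most 2 UMIs of the B cell genes Cd79a and Cd79b, at most 2 of the myeloid gene Lyz2 and at most 2 of the keratins Krt7, Krt8, Krt18 and Krt19. In the BTYNB library 116 of 2227 gated T cells were Foxp3-positive, out of 46342 cells deposited for the series. The other 2111 T cells of that gate, with no Foxp3 UMI, were the comparison. The cells were thus chosen by their own UMIs of Foxp3, Cd3 and the excluded genes, and values of those genes in them are a description.

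All mice were C57BL/6 animals that carried ID8-Trp53-/- cells, a Trp53-deficient mouse ovarian cancer line, in the peritoneal cavity. After 7 days of engraftment they received the vehicle DMSO with isotype IgG2a (control), BTYNB with isotype IgG2a (BTYNB), DMSO with the PD1 antibody clone RMP1-14 (anti-PD-1), or BTYNB with that antibody (combination). The labels give doses of 50 mg/kg for BTYNB and 100 ng for either antibody, and the study's methods differ from both. Ascites was collected once about 3 mL had formed, and cells of the animals of a treatment were pooled into 1 library, depleted of erythrocytes, frozen and cleared of dead cells. BTYNB is a small molecule that inhibits Igf2bp1, an RNA-binding protein of fetal tissue and tumors. With 1 pooled library per treatment there is no spread between animals, so no test between treatments or between cell groups was possible. Intervals are exact 95% intervals that cover counting error only, and genes are given by the symbols of the files.

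Regulatory T cells are CD4 T cells that hold other immune cells in check, and the transcription factor Foxp3 defines them. They carry CD25 (Il2ra), the high-affinity part of the IL-2 receptor, and take up IL-2, and they display CTLA-4, which removes the costimulatory ligands from antigen-presenting cells. Central regulatory T cells recirculate through lymphoid tissue and use the transcription factors Lef1 and Tcf7, whereas effector and tissue forms carry molecules such as KLRG1, ICOS and the IL-33 receptor ST2 (Il1rl1).

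The deposited libraries differed in depth and in T cell number. There were 7858 cells for control, 19247 for BTYNB, 12163 for anti-PD-1 and 7074 for the combination. The smallest deposited cell had 4438, 869, 3533 and 5115 UMIs in these libraries, so small cells were present in the BTYNB library alone. Beside the 2227 gated T cells of BTYNB, the combination library held 53, anti-PD-1 6 and control 4. Libraries shared between 0 and 4 cell labels in pairs, and none of these belonged to a gated T cell.

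Foxp3, which chose the cells, ranged from 1 to 13 UMIs per cell with a median of 3, and these cells held 443 Foxp3 UMIs in all. A single Foxp3 UMI was seen in 26 cells and 5 or more in 38. Of 197 Foxp3-containing cells of sufficient quality in the BTYNB library, 35 missed the gate through Cd3 alone, 17 of them by 1 UMI, and 23 cells inside the gate stood at the Cd3 limit of 2. Another 8 were kept out by Cd79a and Cd79b alone, 3 by Lyz2 alone, 4 by keratins alone and 31 by several limits. Foxp3 was rare outside T cells. In the same library it was found in 3 of 2397 cells of a B cell gate (0.125%, median 1981 UMIs), 6 of 2578 myeloid cells (0.233%, median 4411) and 10 of 2773 keratin-rich cells (0.361%, median 19516).

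The cells carried the other defining markers of regulatory T cells. To compare cells of unequal depth, each was thinned at random to 1000 UMIs, which left 114 Foxp3-positive cells. After thinning, Il2ra was detected in 41.2% of them (32.1% to 50.8%), against 1.58% of Foxp3-negative T cells. Ctla4 was detected in 79.0% (70.3% to 86.0%) against 16.3%. Ikzf2, which encodes the transcription factor Helios, was detected in 54.4% (44.8% to 63.7%) against 8.45%. Without thinning, the shares in Foxp3-positive cells were 55.2% for Il2ra, 94.0% for Ctla4 and 78.4% for Ikzf2. At 1000 UMIs the same markers were seen in 0.210% (Il2ra), 1.72% (Ctla4) and 0.589% (Ikzf2) of cells of the B cell gate, which set the level of background.

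The nearest comparison was with 308 Foxp3-negative cells that held Cd4 and no Cd8a or Cd8b1, here called Cd4-positive. In these, thinned shares were 1.64% for Il2ra, 31.1% for Ctla4 and 4.59% for Ikzf2. Ctla4 was thus common in Cd4-positive cells, while Il2ra and Ikzf2 were rare in them. At least 2 of Il2ra, Ctla4 and Ikzf2 were detected in 96 of 116 Foxp3-positive cells (82.8%, 74.6% to 89.1%), in 24 of 308 Cd4-positive cells (7.79%) and in 146 of all 2111 Foxp3-negative cells (6.92%). All 3 were found in 53 Foxp3-positive cells, 3 Cd4-positive cells and 14 Foxp3-negative cells, and 1 Foxp3-positive cell held none of them. The plot of marker detection shows Klrg1 and Gzmb higher in Foxp3-positive cells too, which is described further on.

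**Figure D1:**
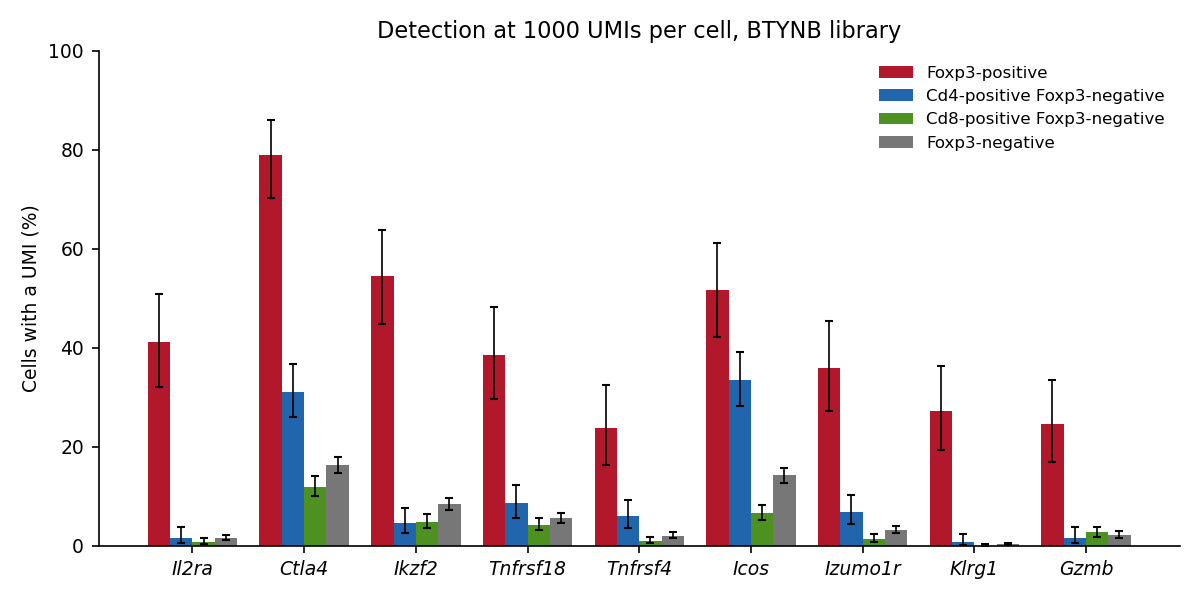
Bars give the percentage of cells with at least 1 UMI of each gene after thinning to 1000 UMIs per cell, in 4 groups of gated T cells of the BTYNB library; error bars are exact 95% intervals for counting error. Foxp3-positive cells stand above the other groups for every gene drawn, with the smallest gap to Cd4-positive cells at Icos.

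By lineage, Cd4 was found in 62 of the 116 Foxp3-positive cells (53.4%) and Cd8a or Cd8b1 in 8, of which 4 also held Cd4. Neither was detected in 50 cells. Among Foxp3-negative cells, 1080 held Cd8a or Cd8b1 without Cd4, so the full comparison is weighted towards CD8 T cells. Cd8a had 2 UMIs in 1 Foxp3-positive cell (5.39 CPM, the summed UMIs of a gene scaled by all UMIs of the cell group), against 420 CPM in Foxp3-negative cells. Trdc, the constant segment of the delta chain of the T cell receptor, had 1 UMI (2.70 CPM against 156 CPM). The T lineage list had 1 of 11 genes at least 2-fold higher (Cd4) and 4 lower, with a median of -0.23. Trac, that of the alpha chain, was at 1221 CPM against 889 CPM. Variable segments were too sparse to describe a repertoire: a Trbv segment was seen in 8 Foxp3-positive cells, over 7 different segments.

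Levels were compared over 4367 genes with at least 200 UMIs in the gate, UMIs of Foxp3-positive cells included. In Foxp3-negative cells 200 UMIs are 39.7 CPM, and some genes below that passed only through Foxp3-positive cells. They include Il2ra (150 UMIs in Foxp3-negative cells), Il1rl1 (115), Izumo1r (165), Pcyt1a (186), Cish, Tigit, Tgfb1 and Itgae. Counts of higher genes that hold them are partly set by this choice. At a 2-fold limit, 230 genes were higher and 276 lower in Foxp3-positive than in Foxp3-negative T cells, which is 5.27% and 6.32% of the genes compared. Against Cd4-positive cells alone, 161 (3.69%) were higher and 265 (6.07%) lower of 4364 genes, with Cd4, Cd8a and Cd8b1 left out. Against Cd8-positive cells (Cd8a or Cd8b1 without Cd4) 338 (7.75%) were higher and 312 (7.15%) lower. The median log2 ratio over all genes was 0.06 against Foxp3-negative and -0.03 against Cd4-positive cells. The Foxp3-positive sum held 370955 UMIs, so 3 counts, the least called detected in a sum, correspond to 8.09 CPM. The cells were slightly deeper (median 2396 UMIs, 919 to 14202) than Foxp3-negative cells (median 2009) and had a lower median share of mitochondrial UMIs, 5.89% against 9.48%.

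**Figure D2:**
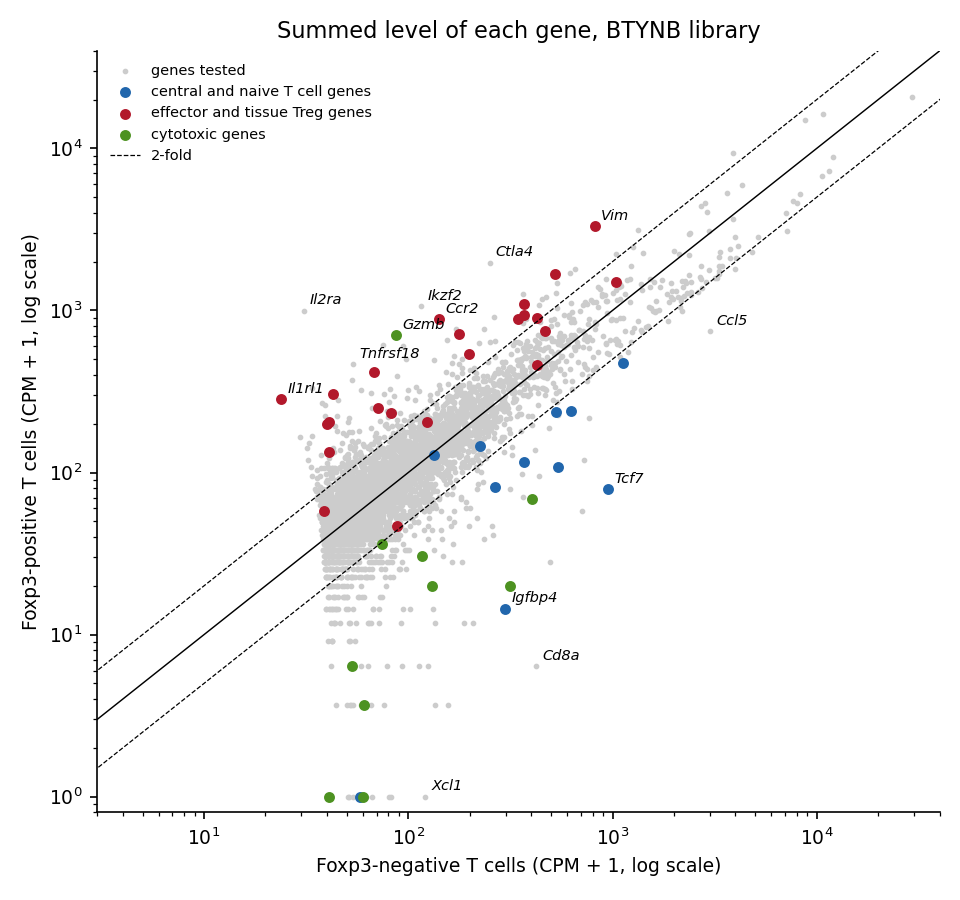
Each point is 1 of the 4367 genes compared, with its level in CPM plus 1 in Foxp3-negative cells (x axis) and Foxp3-positive cells (y axis) of the BTYNB library on log scales; colors mark 3 gene lists, the solid line equality and the dashed lines 2-fold. Effector and tissue genes lie mostly above the upper dashed line, and central and cytotoxic genes mostly below the lower one, with Gzmb as the cytotoxic gene above it.

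Il2ra had the highest ratio of the genes compared with all Foxp3-negative cells. Per cell it ranged from 0 to 51 UMIs with a median of 1, and the 3 richest cells held 24.1% of its 370 UMIs. In Foxp3-negative cells the median was 0 and the highest value 13, so the ranges overlapped while most Foxp3-negative cells held none. The level was 997 CPM against 29.8 CPM in Foxp3-negative and 61.4 CPM in Cd4-positive cells, a log2 ratio of 5.02 (4.79 to 5.35) and a 16.3-fold difference from Cd4-positive cells. The other chains of the IL-2 receptor differed less. Il2rb, the signaling beta chain, was at 911 CPM against 614 CPM, and Il2rg, the common gamma chain, at 593 CPM against 424 CPM. Cish, an inhibitor induced by IL-2 through STAT5, was at 164 CPM against 28.4 CPM and 59.9 CPM in Cd4-positive cells. Socs2, another gene of this kind, fell under the count limit and was at 216 CPM against 18.5 CPM. Bcl2, which protects from cell death, went the other way at 40.4 CPM against 260 CPM and 193 CPM in Cd4-positive cells. Of the 10 genes of IL-2 signaling compared, 2 were at least 2-fold higher (Il2ra and Cish) and 1 lower (Bcl2) in both comparisons. The medians were 0.32 and -0.12. Both higher genes reached the count limit only with their Foxp3-positive UMIs. Il2 itself had 3 UMIs in 3 Foxp3-positive cells.

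Among 17 transcription factors of regulatory T cells compared, 5 were at least 2-fold higher, 1 was lower and the median was 0.46. Ikzf2 ranged from 0 to 17 UMIs per cell with a median of 2, and was at 1057 CPM against 115 CPM (log2 ratio 3.19, 3.01 to 3.39) and 62.8 CPM in Cd4-positive cells (4.05, 3.62 to 4.56). Prdm1, which encodes Blimp-1, a factor of effector cells, was at 205 CPM against 39.9 CPM and 70.1 CPM. The 3 others depended on the comparison: Maf was at 493 CPM against 133 CPM but 324 CPM in Cd4-positive cells, Gata3 at 232 CPM against 81.2 CPM but 219 CPM, and Rora at 536 CPM against 197 CPM but 454 CPM. Bach2, which restrains effector genes, was at 80.9 CPM against 265 CPM and 187 CPM. Against Cd4-positive cells, 2 of 17 were higher (Ikzf2 and Prdm1), 1 was lower (Bach2) and the median was 0.08. Ikzf4, the Helios relative Eos, lay under the count limit at 119 CPM against 13.1 CPM, in 31 Foxp3-positive cells.

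Of 8 suppressive molecules compared, 5 were at least 2-fold higher and none lower, with a median of 1.15, against Cd4-positive cells 4 and 0 with a median of 0.86. Ctla4 ranged from 0 to 24 UMIs with a median of 5, and was at 1968 CPM against 249 CPM and 549 CPM in Cd4-positive cells. Fgl2, which encodes a secreted suppressive protein, was at 305 CPM against 74.9 CPM and 65.8 CPM. Tigit, an inhibitory receptor, was at 119 CPM against 31.4 CPM and 36.5 CPM, and Tgfb1 at 80.9 CPM against 35.9 CPM and 32.2 CPM. Tigit and Tgfb1 reached the count limit only with their Foxp3-positive UMIs. Nrp1, a surface receptor of thymus-derived regulatory T cells, was higher than in Foxp3-negative cells (148 CPM against 66.1 CPM) but not than in Cd4-positive cells (140 CPM). Lrrc32, which encodes GARP, the docking protein of latent TGF-beta, was under the count limit with 23 UMIs in 20 Foxp3-positive cells (62.0 CPM), against 1.19 CPM in Foxp3-negative cells and 0 UMIs in Cd4-positive cells. Il10 had 18 UMIs in 7 cells, 61.1% of them in 3 cells. Transcripts of the checkpoint receptors Pdcd1 and Lag3 were scarce, with 11 and 4 UMIs in Foxp3-positive cells, and were low in the comparison cells too. Without cells that held RNA of other cell types, as given further on, Pdcd1 was at 37.2 CPM against 22.1 CPM and 25.7 CPM in Cd4-positive cells. Lag3 was at 11.2 CPM against 16.3 CPM and 0 CPM there.

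Receptors of the TNF family and costimulators were higher as a list, with 6 of 12 at least 2-fold higher, none lower and a median of 1.02, and 5 of 12 with a median of 0.65 against Cd4-positive cells. Tnfrsf18, which encodes GITR, was found in 75 cells with up to 10 UMIs and was at 466 CPM against 52.8 CPM and 93.5 CPM. Tnfrsf9 (4-1BB), a mark of recent receptor engagement, was found in 57 cells with up to 7 UMIs and was at 415 CPM against 66.7 CPM and 26.3 CPM. Its ratio was larger against Cd4-positive cells (3.93) than against all Foxp3-negative cells (2.62). Tnfrsf1b (TNFR2) was at 178 CPM against 52.2 CPM and 42.4 CPM. Icos was found in 86 cells, at 717 CPM against 177 CPM and 454 CPM, and Tnfrsf4 (OX40), under the count limit, in 51 cells at 259 CPM against 19.3 CPM. The ligand side was low. Cd40lg, which conventional helper cells use to help B cells, had 5 UMIs in 4 Foxp3-positive cells (13.5 CPM) against 145 CPM in Cd4-positive cells. Tnfsf8 (CD30 ligand) had 2 UMIs in 1 cell, against 226 CPM.

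Of a list of 22 further genes reported in regulatory T cells, 12 were compared, 6 were at least 2-fold higher and Cst7 was lower, with a median of 0.88. Against Cd4-positive cells 4 were higher, none lower and the median was 0.65. The leading genes were Izumo1r, which encodes the folate receptor family member FR4 (332 CPM against 32.8 CPM), Glrx, a glutaredoxin (609 CPM against 74.3 CPM), Capg, an actin-capping protein (305 CPM against 41.7 CPM) and Arl5a (607 CPM against 93.5 CPM). They were detected in 65, 81, 59 and 80 of 116 cells. In Cd4-positive cells these 4 stood at 74.5, 158, 90.6 and 149 CPM. Gpr83 had 2 UMIs and was at the background of single counts. By the rule of largest ratio, the 12 genes highest against Foxp3-negative cells also held Pcyt1a, an enzyme of phosphatidylcholine synthesis (267 CPM against 36.9 CPM, 43 cells), and Ass1, of arginine synthesis (372 CPM against 52.2 CPM, 64 cells). Of these 12, Il2ra, Il1rl1, Izumo1r, Pcyt1a and S100a8 reached the count limit only with their Foxp3-positive UMIs. Izumo1r is also among the 6 higher genes of the list.

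**Figure D3:**
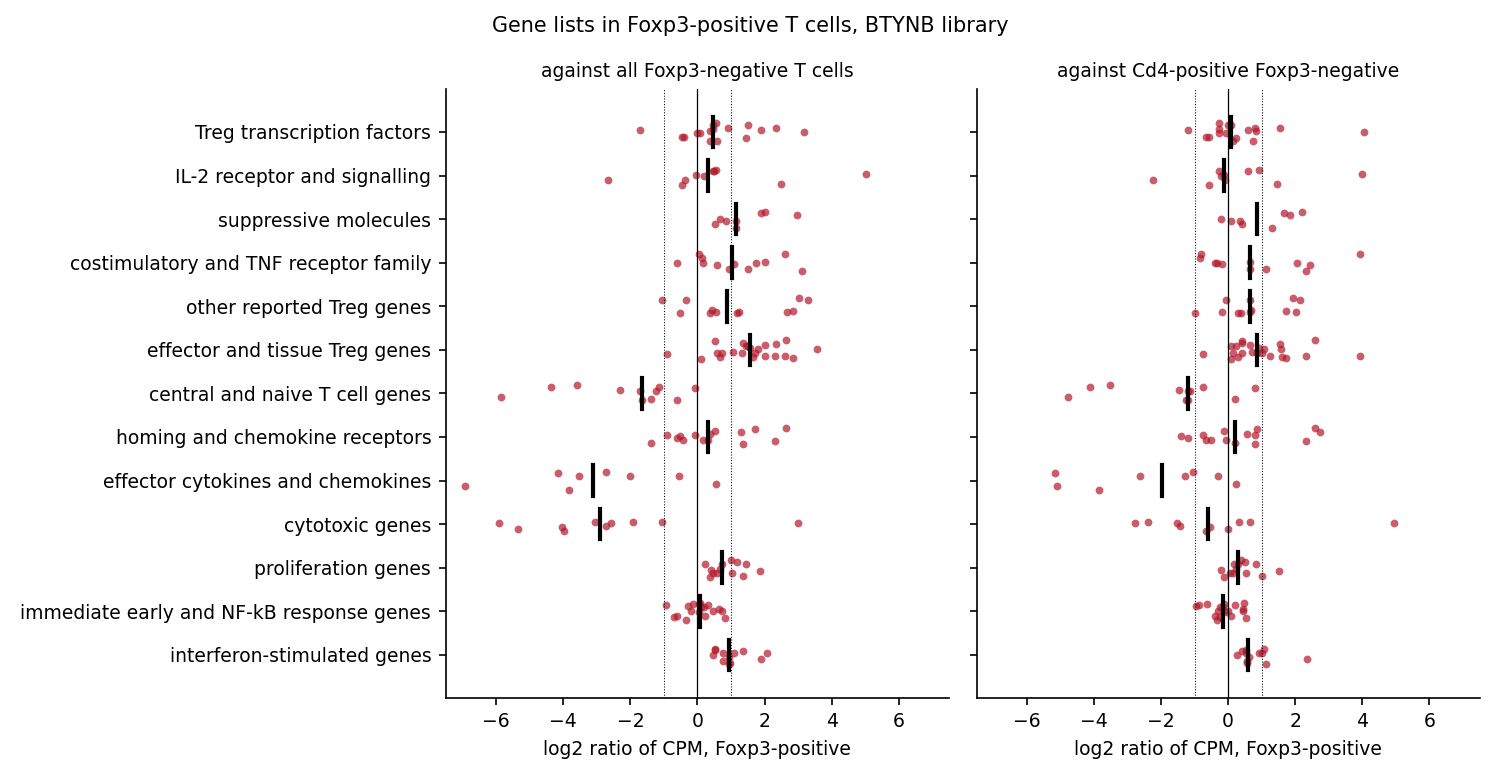
Each point is a gene of a list with enough UMIs to be compared, placed at its log2 ratio of CPM in Foxp3-positive cells to all Foxp3-negative T cells (left) or to Cd4-positive Foxp3-negative cells (right) of the BTYNB library; black bars are list medians and dotted lines mark 2-fold. The medians of the effector and tissue list are 1.56 and 0.85, those of the central list -1.66 and -1.20, and cytotoxic genes move from -2.89 to -0.61 when Cd4-positive cells are the comparison.

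Genes of effector and tissue regulatory T cells were higher as a list, 17 of 23 at least 2-fold against Foxp3-negative cells and 10 of 23 against Cd4-positive cells, with none lower in either comparison. Il1rl1 and Itgae, among the higher genes in both comparisons, reached the count limit only with their Foxp3-positive UMIs, so these counts are partly set by that limit. Klrg1, a lectin-like receptor of highly differentiated cells, was the sharpest of them although it lay under the count limit. It was found in 44 of 116 Foxp3-positive cells with up to 11 UMIs, in 13 of 2111 Foxp3-negative and in 3 of 308 Cd4-positive cells. At 1000 UMIs its shares were 27.2% (19.3% to 36.3%), 0.288% and 0.656%. The level was 418 CPM against 6.36 CPM and 7.31 CPM. Il1rl1 was found in 37 cells with up to 13 UMIs and was at 283 CPM against 22.8 CPM, with a log2 ratio of 1.57 (1.12 to 2.04) over Cd4-positive cells. A single Cd4-positive cell reached 28 Il1rl1 UMIs, above every Foxp3-positive cell. Areg, a growth factor of tissue repair made by ST2-bearing regulatory T cells, had 29 UMIs in 18 cells (78.2 CPM against 11.5 CPM). Vim, an intermediate filament gene, ranged from 0 to 81 UMIs with a median of 6 and was at 3321 CPM against 819 CPM and 1397 CPM, and S100a6 at 1666 CPM against 524 CPM and 544 CPM. Cxcr6 was the list member below Foxp3-negative cells, at 45.8 CPM against 87.2 CPM. Ccr8 and Pparg, genes of tissue regulatory T cells, had only 9 and 3 UMIs. Without cells that held RNA of other cell types, as given further on, Ccr8 was at 33.5 CPM against 5.35 CPM and 16.05 CPM in Cd4-positive cells. Pparg was at 11.2 CPM against 6.46 CPM and 33.7 CPM there.

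Central and naive genes were lower, with 9 of 11 at least 2-fold below Foxp3-negative cells, 8 of 11 below Cd4-positive cells, none at least 2-fold higher and medians of -1.66 and -1.20. Short of 2-fold, 2 of the 11 lay above Cd4-positive cells, with a log2 ratio of up to 0.79. Tcf7 was found in 15 of 116 Foxp3-positive cells against 74.7% of Cd4-positive cells, at 78.2 CPM against 954 CPM and 913 CPM. Satb1, a chromatin organizer, was at 108 CPM against 540 CPM and 298 CPM, and Lef1 at 116 CPM against 369 CPM and 281 CPM. Igfbp4 had 5 UMIs (13.5 CPM against 298 CPM and 250 CPM). Dapl1 was not detected, and its level was at least 7.05-fold lower than in Foxp3-negative cells and at least 3.25-fold lower than in Cd4-positive cells. Ccr7 rested on few cells, since 3 cells held 72.3% of its 47 UMIs. The same 3 cells held 41, 11 and 7 UMIs of the dendritic cell gene Fscn1. Without cells that held RNA of other cell types, as given further on, the log2 ratio of Ccr7 to Cd4-positive cells was -0.58.

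Homing receptors were mixed, with 5 of 15 at least 2-fold higher, 1 lower and a median of 0.33. Ccr2, the receptor that draws cells to inflamed sites, ranged from 0 to 24 UMIs with a median of 1, was found in 80 cells and was at 879 CPM against 140 CPM and 145 CPM. Itgae (CD103), an integrin chain that binds E-cadherin, was at 199 CPM against 39.1 CPM and 39.5 CPM. It is among the 5 and reached the count limit only with its Foxp3-positive UMIs. Cxcr3 was at 132 CPM against 39.9 CPM and 73.1 CPM, and Itgb7 at 642 CPM against 250 CPM and 367 CPM. Against Cd4-positive cells 3 were higher, Ccr2 and Itgae among them, and 2 were lower (Itgb1 and S1pr1), with a median of 0.20.

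Of 8 effector cytokines and chemokines compared, none was at least 2-fold higher and 6 were lower in each comparison, with medians of -3.12 and -1.96 (-1.68 with undetected genes at the 3-count level). Ifng had 1 UMI in 116 cells (2.70 CPM) against 51.0 CPM and 52.6 CPM. Il4, Il5, Il13, Il17a, Il17f, Il21, Il22 and Csf2 had 0 UMIs, and the limit of 3 counts allows up to 2.59% of Foxp3-positive cells with a UMI of each. These cytokines were also low in Foxp3-negative cells, at 0.199 to 10.5 CPM. In Cd4-positive cells they were read without cells that held RNA of other cell types, as given further on. There Il13 was at 35.3 CPM, Il17a and Csf2 at 14.45 CPM, and the rest at 8.03 CPM or less. Xcl1, a chemokine of CD8 T and NK cells, had 0 UMIs and, with the 3-count level in its place, was at least 14.9-fold lower than in Foxp3-negative cells and at least 4.16-fold lower than in Cd4-positive cells. Ccl5 was lower than in Foxp3-negative cells (747 CPM against 2991 CPM) and was at 918 CPM in Cd4-positive cells, and it was still found in 46 of 116 Foxp3-positive cells. Ltb, a lymphotoxin gene, was at 102 CPM, against 87.7 CPM in Cd4-positive cells. Among the genes lowest against Foxp3-negative cells, Samd3, Scart1, Klra7, Klrc1, which encodes an NK receptor, and Eomes, a transcription factor of CD8 T and NK cells, had 0 UMIs, with Klrc1 at least 4.91-fold and Scart1 at least 7.59-fold lower, and Klre1 had 1 UMI. In Cd4-positive cells these genes were at 5.85 CPM or less. Prtn3 and Mpo, granule genes of myeloid precursors, also had 0 UMIs, and came from 8 and 6 Foxp3-negative cells. Hba-a2, a hemoglobin gene, had 1 UMI in Foxp3-positive cells (133 CPM in Foxp3-negative cells, from 59 cells).

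Gzmb (granzyme B) stood apart from the other cytotoxic genes. It was found in 40 of 116 Foxp3-positive cells, with 0 to 43 UMIs and 38.5% of its 260 UMIs in 3 cells, and in 95 of 2111 Foxp3-negative and 7 of 308 Cd4-positive cells. At 1000 UMIs its shares were 24.6% (17.0% to 33.5%), 2.21% and 1.64%, and 2.71% in Cd8-positive cells. The level was 701 CPM against 86.2 CPM, 21.9 CPM in Cd4-positive and 87.4 CPM in Cd8-positive cells, a log2 ratio of 4.94 (4.25 to 5.86) over Cd4-positive cells. The highest single value, 132 UMIs, was in a Foxp3-negative cell. Prf1 (perforin), which lets granzymes into target cells, had 1 UMI, Gzma had 2 and Nkg7 25 (67.4 CPM against 405 CPM). Of 10 cytotoxic genes compared, 9 were lower and only Gzmb higher against Foxp3-negative cells, with a median of -2.89 (-2.64 with undetected genes at the 3-count level). Against Cd4-positive cells 4 were lower and 1 higher, with a median of -0.61 (-0.11), and of the 4 Eomes rested on 4 UMIs in Cd4-positive cells.

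Proliferation genes were modestly higher, with 6 of 13 at least 2-fold above Foxp3-negative cells, none lower and a median of 0.73. Against Cd4-positive cells 2 of 13 were higher with a median of 0.29. Mki67 was found in 22 Foxp3-positive cells with up to 14 UMIs (237 CPM against 118 CPM and 183 CPM), and 3 cells held 45.5% of its UMIs. Without cells that held RNA of other cell types, as given further on, it was at 182 CPM against 116 CPM (log2 ratio 0.64), and Mki67, Top2a and Birc5, 3 of the 6, no longer passed 2-fold. Interferon-stimulated genes had 4 of 12 higher and none lower in each comparison, with medians of 0.94 and 0.60. Ly6e, found in 114 cells, was at 2240 CPM against 1042 CPM and 1109 CPM, and Iigp1, an immunity-related GTPase, at 175 CPM against 46.9 CPM and 33.6 CPM. Immediate early and NF-kB genes, which also respond to tissue handling, did not pass 2-fold in either direction for any of 18 genes, with medians of 0.07 and -0.14. Fos was at 3076 CPM against 2960 CPM. The target of BTYNB was not measurable in these cells: Igf2bp1 had 2 UMIs in 2 of 116 cells, Igf2bp2 none and Igf2bp3 2.

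RNA of other cell types was present in some Foxp3-positive cells. Of 12 B and plasma cell markers, 4 could be compared and all 4 were at least 2-fold higher in Foxp3-positive cells: Cd74, H2-Aa and H2-Ab1, which belong to MHC class II presentation, and Ighm. The MHC class II RNA was concentrated, with 58.4% of 399 H2-Aa UMIs in 3 cells and up to 137 Cd74 UMIs in 1 cell, while Ms4a1 had 3 UMIs and Cd79a and Cd79b, limited by the gate, had 1 UMI each. The dendritic cell genes Fscn1 (75 UMIs in 4 cells) and Cd209a (28 UMIs in 3 cells) and the neutrophil genes S100a8 (97 UMIs) and Retnlg (102 UMIs, both in 1 cell) were likewise confined to few cells. For macrophages, Adgre1 was at 0 and C1qa had 3 UMIs, and of 4 markers compared Ccr2 was higher and Ly6c2 lower. No dendritic cell marker had enough UMIs to be compared, of the neutrophil list S100a8 and S100a9 were higher, and Wt1, the tumor and mesothelial gene compared, did not pass 2-fold. All 4 NK and all 3 erythroid genes compared were lower. Their part in the results was measured by leaving out cells with 5 or more UMIs of Cd74, H2-Aa, H2-Ab1, H2-Eb1, S100a8, S100a9 and Fscn1 together, a choice made after these values had been seen. It removed 17 Foxp3-positive cells (14.7%, median 4907 UMIs) and 118 Foxp3-negative cells (5.59%). With 99 cells left, Il2ra (log2 ratio 5.21), Ikzf2 (3.27), Ctla4 (3.15), Klrg1 (5.81), Gzmb (3.19) and Ccr2 (2.99) were as high as before. The genes used to leave cells out are not compared there.

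Ighm behaved differently from MHC class II RNA. It was spread over 64 of 116 Foxp3-positive cells with at most 9 UMIs in a cell, against 18.1% of Foxp3-negative and 10.4% of Cd4-positive cells. The level was 504 CPM against 96.1 CPM and 62.8 CPM. Without the 17 cells it was 611 CPM against 94.9 CPM, in 57 of 99 cells. Igkc, the kappa light chain constant gene, was found in 22 of 116 cells (89.0 CPM against 28.8 CPM). Epcam, an epithelial adhesion gene of the tumor list, showed a similar spread, with 39 UMIs in 24 Foxp3-positive cells (105 CPM) against 7.35 CPM and 8.77 CPM. The mesothelial gene Upk3b was at 16.2 CPM in Foxp3-positive and 33.6 CPM in Foxp3-negative cells, and the keratins were limited by the gate in both groups. The source of Ighm and Epcam RNA was not tested.

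Foxp3-positive cells varied among themselves along the effector genes. Klrg1 and Gzmb were often found in the same cells, a split chosen after their levels had been seen and given as a description. Gzmb was detected in 23 of 44 cells with Klrg1 and in 17 of 72 cells without it, at 1348 CPM (1174 to 1540) and 209 CPM (152 to 280). The 3 cells with 38.5% of all Gzmb UMIs each held Klrg1. These intervals treat UMIs as independent and do not cover the spread between cells. Il1rl1 followed the same split, with 22 of 44 and 15 of 72 cells, at 462 CPM and 147 CPM. Il2ra was at 1423 CPM and 674 CPM, Tnfrsf4 at 368 CPM and 176 CPM and Tnfrsf9 at 580 CPM and 290 CPM. Foxp3 itself differed little, at 1161 CPM and 1220 CPM, as did Icos at 774 CPM and 674 CPM. The cells with Klrg1 were deeper, with a median of 2934 UMIs against 2212, and the part of depth in these shares was not tested.

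**Figure D4:**
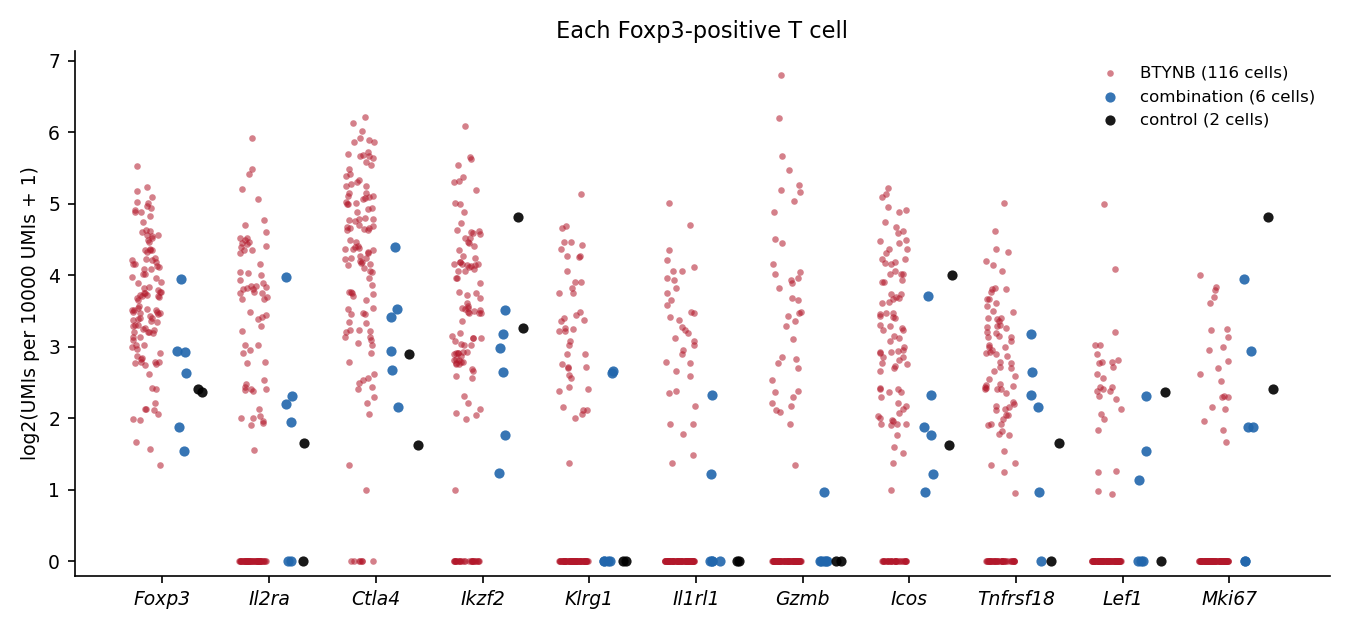
Each point is a Foxp3-positive T cell, with the UMIs of a gene per 10000 UMIs of that cell on a log2 scale after adding 1, for 116 cells of the BTYNB, 6 of the combination and 2 of the control library. Ctla4 and Ikzf2 are seen in cells of all 3 libraries, while Gzmb is found in 40 BTYNB cells, in 1 combination cell with a single UMI and in neither control cell.

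Between treatments, only the BTYNB and combination libraries held enough T cells for a share. Foxp3-positive cells were 5.21% (4.32% to 6.22%) of gated T cells in BTYNB and 6 of 53 (11.3%, 4.27% to 23.0%) in combination. The anti-PD-1 library had 0 of 6, which at the limit of 3 counts allows a share of up to 50.0%, and control 2 of 4. Of all cells of sufficient quality, they were 0.634% in BTYNB, 0.0852% in combination and 0.0255% in control. These shares are not matched for depth, since the smallest deposited cell had 869, 5115 and 4438 UMIs in these libraries. Of the 116 Foxp3-positive BTYNB cells, 13 had 5115 UMIs or more. The share of gated T cells was higher in deeper cells within BTYNB, from 2.70% of cells with 869 to 1500 UMIs to 13.1% of cells with 5000 or more. At 5115 UMIs or more, the smallest combination cell, the BTYNB share was 13 of 104 (12.5%, 6.83% to 20.4%). It lay within the combination interval, so a difference was not detectable at this depth. Without cells that held 5 or more UMIs of the markers of other cells named above, the shares were 6 of 60 in BTYNB and 2 of 19 (10.5%, 1.30% to 33.1%) in combination.

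**Figure D5:**
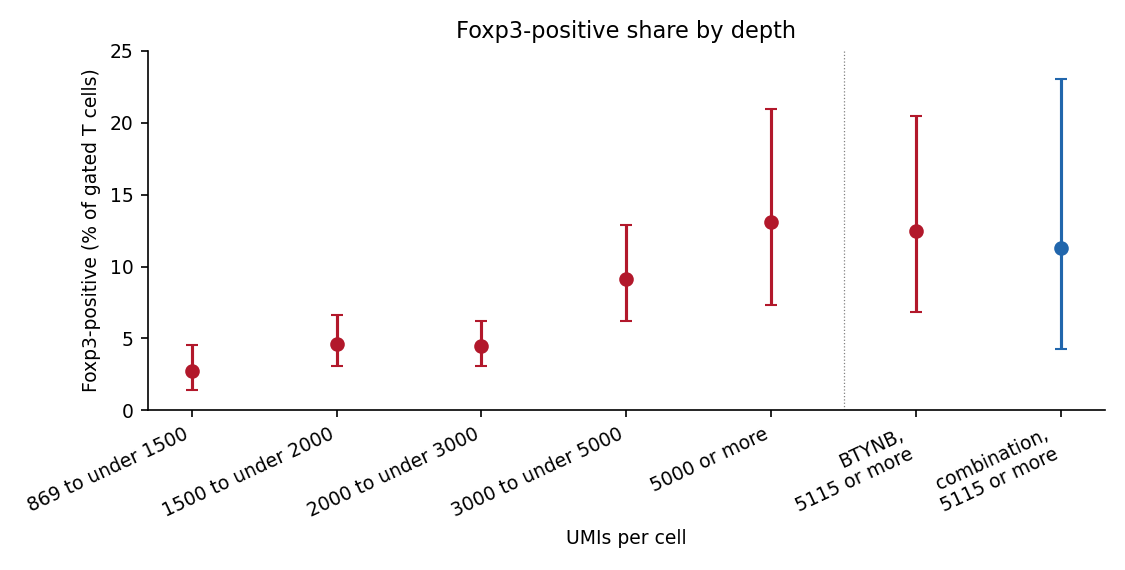
Points give the percentage of gated T cells with a Foxp3 UMI, with exact 95% intervals for counting error, in bins of UMIs per cell of the BTYNB library (left of the dotted line) and in all cells with at least 5115 UMIs of the BTYNB (red) and combination (blue) libraries. The share is lowest in the smallest cells, and the last 2 points, 12.5% and 11.3%, overlap.

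The 6 combination cells had 5797 to 10516 UMIs and carried the same markers. Their Foxp3 UMIs were 3, 2, 5, 5, 12 and 2 in order of cell size, Ctla4 2, 4, 15, 8, 8 and 7, Ikzf2 4, 1, 6, 4, 2 and 11, and Il2ra 0, 0, 11, 3, 3 and 3. Every one of them held Cd4 (2 to 4 UMIs) and none held Cd8a or Cd8b1. Against 47 Foxp3-negative combination T cells, Il2ra was at 425 CPM against 6.31 CPM, Ctla4 at 934 CPM against 221 CPM, Ikzf2 at 594 CPM against 75.8 CPM and Capg at 382 CPM against 56.8 CPM. Tcf7 was at 21.2 CPM (1 UMI) against 193 CPM. The markers of other cells were at 5 or more UMIs in 4 of the 6 cells, with up to 181 UMIs.

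Gzmb differed between the libraries in Foxp3-positive cells, through few cells. In combination it had 1 UMI (21.2 CPM, 0.537 to 118) against 366 CPM in the Foxp3-negative cells, the reverse of BTYNB. In the 13 BTYNB cells of the same depth, 5 cells held 84 Gzmb UMIs (730 CPM), a log2 ratio of combination to BTYNB of -5.04 (-10.4 to -2.59). Of these UMIs 80 were in 3 cells, and the other 10 BTYNB cells held 4 Gzmb UMIs, so the interval, which treats UMIs as independent, does not cover the spread between cells. Il2ra was at 425 CPM against 1243 CPM and Ccr2 at 191 CPM against 930 CPM. These 2 genes also leaned on few cells, since 1 BTYNB cell held 51 of 143 Il2ra UMIs and 24 of 107 Ccr2 UMIs. Foxp3 (616 CPM and 713 CPM), Ikzf2 (594 CPM and 565 CPM), Ctla4 (934 CPM and 756 CPM) and Tnfrsf18 (340 CPM and 322 CPM) were close. Klrg1 was at 149 CPM in 2 of 6 and 304 CPM in 5 of 13 cells, with an interval of the log2 ratio from -2.45 to 0.16. Of the 13 BTYNB cells, 7 held 5 or more UMIs of the markers of other cells, and the 3 Gzmb-rich cells were among the other 6. Those 6 cells held 110 of the 143 Il2ra UMIs but 40 of the 107 Ccr2 UMIs. These are few cells of 1 pool each, and treatment, animals and library cannot be told apart.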

How the data were processed

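Ascites cells of pooled mice were captured by the authors on BD Rhapsody, and 1 matrix of raw UMI counts per library, with gene symbols, was deposited. The study's methods name the vendor's pipeline, and the submitters' processing notes name GRCm39. Matrices were read with scipy 1.17.1 and numpy 2.4.6 (Python 3.11.15). Cells with fewer than 200 genes or over 33% mt- UMIs were left out, the study's limits with mt- genes in place of its mitochondrial catalogue. No doublet caller was run, although the study used one. The gate and alternative limits stand in for one. UMIs were summed per cell group and scaled to CPM, and log2 ratios used a pseudocount of 1 CPM. Shares of cells were also given after random thinning to 1000 UMIs. Intervals are Clopper-Pearson or exact Poisson. Genes in the text are the 12 highest and 12 lowest against Foxp3-negative and 6 each against Cd4-positive cells, without ribosomal, mitochondrial, receptor segment and unnamed genes, and members of 22 lists. The cells, lists and limits were chosen with earlier results of these data known. The comparison script was tested on simulated data. A few of the genes this rule names are not reported here.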

Additional observations from a re-analysis of the deposited data

Results flagged for a closer look

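In the control library, outside the comparisons of the report, 2 gated T cells held Foxp3. They had 4661 and 4807 UMIs and 2 Foxp3 UMIs each, with 2 and 3 UMIs of Cd4, 4 and 13 of Ikzf2, 3 and 1 of Ctla4 and 1 and 0 of Il2ra. Both also held Mki67 (2 and 13 UMIs). There were 4 gated T cells in this library, and Foxp3 was found in 5 of 4331 of its keratin-rich cells (0.115%, median 11311 UMIs).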

How the results depend on the processing

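No paired analysis was possible because each treatment had 1 pooled library, and no replicate could be left out. Requiring 2 Foxp3 UMIs gave a share of 4.04%. The gene counts followed the filter on low counts. This filter also sets how many genes are compared, so the counts by themselves do not show a change in share. With at least 100 UMIs, 380 genes were higher and 557 lower than in Foxp3-negative cells, and 349 and 547 against Cd4-positive cells. With at least 500 UMIs these were 79, 104, 36 and 87, and with no filter 2045, 3015, 2339 and 3763. A pseudocount of 10 CPM gave 171 genes lower than in Cd4-positive cells. Thinning to 750 UMIs gave 30.2% for Il2ra. Thinning to 1500 UMIs gave 52.4% for Il2ra, 86.4% for Ctla4 and 68.0% for Ikzf2, and no thinning 55.2%, 94.0% and 78.4%. Leaving out cells with markers of other cells turned the log2 ratio of S100a8 to -2.12, since all its UMIs were in 1 cell that was left out. The other 63 of the main values stayed within 1.5 times or within their counting interval. The limits tried included 0 UMIs of B cell, myeloid and keratin genes and 3 Cd3 UMIs. Cells of at least 1500 UMIs, and no cells above 3 times the median depth, were also tried. Among further values put through such changes, 44 moved beyond these bounds, 1 reversed and 173 stayed. Scaling by the median of ratios moved all genes by 0.07 or less on the log2 scale. Depth limits single genes to 8.09 CPM in 116 cells.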
